A study of Mus musculus with 298 samples.

Results

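The subunit genes of the neuronal nicotinic acetylcholine receptor were followed in single cells from sympathetic ganglia of the mouse thorax, together with the gene of a chaperone that assembles the receptor. The 7 genes were taken by symbol from a table of 16892 genes: the subunit genes Chrna3, Chrna4, Chrna5, Chrna7, Chrnb2 and Chrnb4, and Tmem35, which encodes the endoplasmic reticulum protein NACHO.

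Nicotinic receptors are channels of several subunits that open when acetylcholine binds, and they carry fast transmission from preganglionic axons to sympathetic neurons. Receptors of ganglion neurons are built mainly on the subunits encoded by Chrna3 and Chrnb4. The Chrna5 subunit joins such receptors as an accessory part, the Chrnb2 subunit can take the place of the Chrnb4 subunit, and the Chrna7 subunit can form channels of its own. NACHO acts inside the cell, where it promotes the assembly of Chrna7 receptors and of other neuronal nicotinic receptors.

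The 298 cells came from mice of both sexes aged postnatal day 11 to 38, all carrying the Wnt1-Cre driver, which acts in the neural crest lineage, and the R26R-Tomato reporter, with no treatment named. Ganglia were dissociated with enzymes, and cells were captured on 24 microfluidic chips and kept where inspection by eye showed a single healthy cell. The labels place 193 cells in 5 noradrenergic identities (Noradrenergic1 with 10 cells, Noradrenergic2 with 39, Noradrenergic4 with 18, Noradrenergic5 with 23 and Noradrenergic3 with the rest), 16 cells in the cholinergic identities Ach1 and Ach2 with 8 each, and 4 in a Glutamatergic identity. Another 85 cells are labelled Unclassified and entered no comparison.

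The labels name no animals, so cells of the same sex and age were treated as 1 collection. There were 10 collections of 1 to 106 cells, 7 labelled female and 3 labelled male. Tests between identities remove what a whole collection shares. Their p-values measure only the spread left among sums of cells per identity and collection, which may be technical. Of these 44 sums 16 were single cells, so that spread includes differences between cells. In the comparison of the sexes the p-values measure only the spread between collections, which may also be technical. How each cell received its identity is not stated in the labels; if the counts of these cells were used for it, a p-value between identities describes their separation and gives no independent evidence of it. The 5 cells of the P16 female collection, aged postnatal day 16, held 0 counts of Xist, and all 5 held Y-linked counts, against their label; none of them entered the comparison of the sexes.

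Total counts per cell ranged from 7225 to 81589 with a median of 33099, and the median was 22977 in Unclassified cells. The labels were checked against marker genes summed per cell. The 6 noradrenergic markers, among them Th and Slc6a2, reached 56.3 to 363 counts per 10000 counts in noradrenergic cells and 7.41 to 230 in cholinergic cells. The 4 cholinergic markers, Chat, Slc18a3, Slc5a7 and Vip, reached 31.3 to 231 in cholinergic cells and 0 to 4.71 in noradrenergic cells. The 6 sensory or glutamatergic markers, among them Calca and Slc17a6, reached 87.3 to 215 in Glutamatergic cells and 0 to 1.20 in noradrenergic cells. The 10 glial markers had a median of 3.23 in noradrenergic, 25.9 in cholinergic and 33.4 in Glutamatergic cells, and 9 of the 10 held counts in the Glutamatergic cells, with Erbb3 at 0. The part of glial RNA in the differences below was not tested beyond a fit with this marker level as a covariate, in which each member's call named below held.

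Chrna5, Chrna3 and Chrnb4 lie side by side on chromosome 9. In RefSeq coordinates of GRCm38.p6, Chrna3 spans bases 55010117 to 55026562 and Chrnb4 bases 55028154 to 55048953, both on the minus strand. Chrna5 spans bases 54980827 to 55011420 on the plus strand and overlaps the end of Chrna3 by 1304 bases. Whether counting used the strand is not given in the sources used here, so reads in that overlap could belong to either gene and the counts of Chrna5 are uncertain. Chrna7 spans bases 63098692 to 63212526 of chromosome 7, Chrnb2 bases 89753448 to 89764632 of chromosome 3 and Chrna4 bases 181022311 to 181043579 of chromosome 2, all on the minus strand. Tmem35, listed in RefSeq as Tmem35a, spans bases 134295225 to 134305969 of chromosome X on the plus strand.

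The RefSeq sequences before the start sites are shown for Tmem35 and Chrna7, the members that differed between noradrenergic identities, and for Chrna3, the subunit gene with counts in nearly every cell. Each is the 250 bases upstream of the start in GRCm38.p6, read 5′ to 3′ on the gene's strand, and capitals mark matches on either strand to a GC box (GGGCGG) or an E box (CANNTG).
Chrna3, chr9:55026563-55026812, minus strand: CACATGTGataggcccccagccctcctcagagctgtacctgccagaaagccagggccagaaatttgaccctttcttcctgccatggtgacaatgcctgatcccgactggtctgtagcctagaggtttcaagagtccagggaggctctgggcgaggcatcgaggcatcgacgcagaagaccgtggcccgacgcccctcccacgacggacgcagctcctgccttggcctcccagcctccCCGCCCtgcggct
Tmem35, chrX:134294975-134295224, plus strand: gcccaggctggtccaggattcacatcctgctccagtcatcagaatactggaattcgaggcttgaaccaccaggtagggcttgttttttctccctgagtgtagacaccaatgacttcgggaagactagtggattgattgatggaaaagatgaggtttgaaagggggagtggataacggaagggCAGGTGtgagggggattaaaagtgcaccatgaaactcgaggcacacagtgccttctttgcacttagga
Chrna7, chr7:63212527-63212776, minus strand: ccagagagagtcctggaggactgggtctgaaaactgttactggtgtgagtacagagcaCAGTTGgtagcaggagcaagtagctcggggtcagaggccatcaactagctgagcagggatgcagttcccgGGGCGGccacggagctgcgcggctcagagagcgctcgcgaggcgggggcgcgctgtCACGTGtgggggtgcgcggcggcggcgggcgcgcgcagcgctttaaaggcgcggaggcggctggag
The Chrna3 stretch held 1 GC box match, 13 bases before the start, and 2 overlapping E box matches at its far end. The Chrna7 stretch held 1 GC box match, 122 bases before the start, and 2 E box matches. The Tmem35 stretch held 1 E box match, 68 bases before the start, and no GC box match. Their GC contents were 63.2%, 67.2% and 49.6%, against a median of 52.4% over all 32851 such stretches. Of all stretches 32.7% held a GC box match and 66.2% an E box match, so these matches are common letters and are given as a description. The homeobox core TAATTA, present in 4.84% of all stretches, and the TATA box TATAAA, present in 12.4%, were not among these letters in any of the 3.

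Chrna3 was counted in 212 of the 213 cells with an identity, and it was lower in the Glutamatergic cells than in any other identity. Tmem35 was near or at 0 in cholinergic and Glutamatergic cells and present in nearly all noradrenergic cells. For the tests, cells were summed per identity and collection into 44 libraries, and 11555 genes were fitted at once with edgeR's quasi-likelihood test, with the collection as a block and Benjamini-Hochberg adjustment; a gene was called at an adjusted p under 0.05. Of the 7 members 6 were tested. Chrna4 was not, with 4 counts in 298 cells.

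In cholinergic against noradrenergic cells 1 of 6 tested members fell and 0 rose, where 2.40% of all genes fell and 2.17% rose, 4.57% in all. In Glutamatergic against noradrenergic cells 3 of 6 fell and 0 rose, where 1.01% of all genes fell and 1.62% rose, 2.63% in all. In Noradrenergic3 against the other 4 noradrenergic identities 2 of 6 rose and 0 fell, where 1.46% of all genes rose and 0.277% fell. In edgeR's test 0 members were called in the other 6 comparisons. Between Ach1 and Ach2, where 0.138% of all genes were called, 1 member had an unadjusted p under 0.05. For Noradrenergic1, with 1.39% of genes called, this held for 3 members, and for Noradrenergic4, with 1.25%, for 2. For Noradrenergic2, with 1.64%, Noradrenergic5, with 1.41%, and male against female cells, with 0.0296%, it held for 0. DESeq2 on the same libraries also called 0 members in these comparisons, except Tmem35 in Noradrenergic4. The plot of fitted fold changes sets these results side by side.

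**Figure D1:**
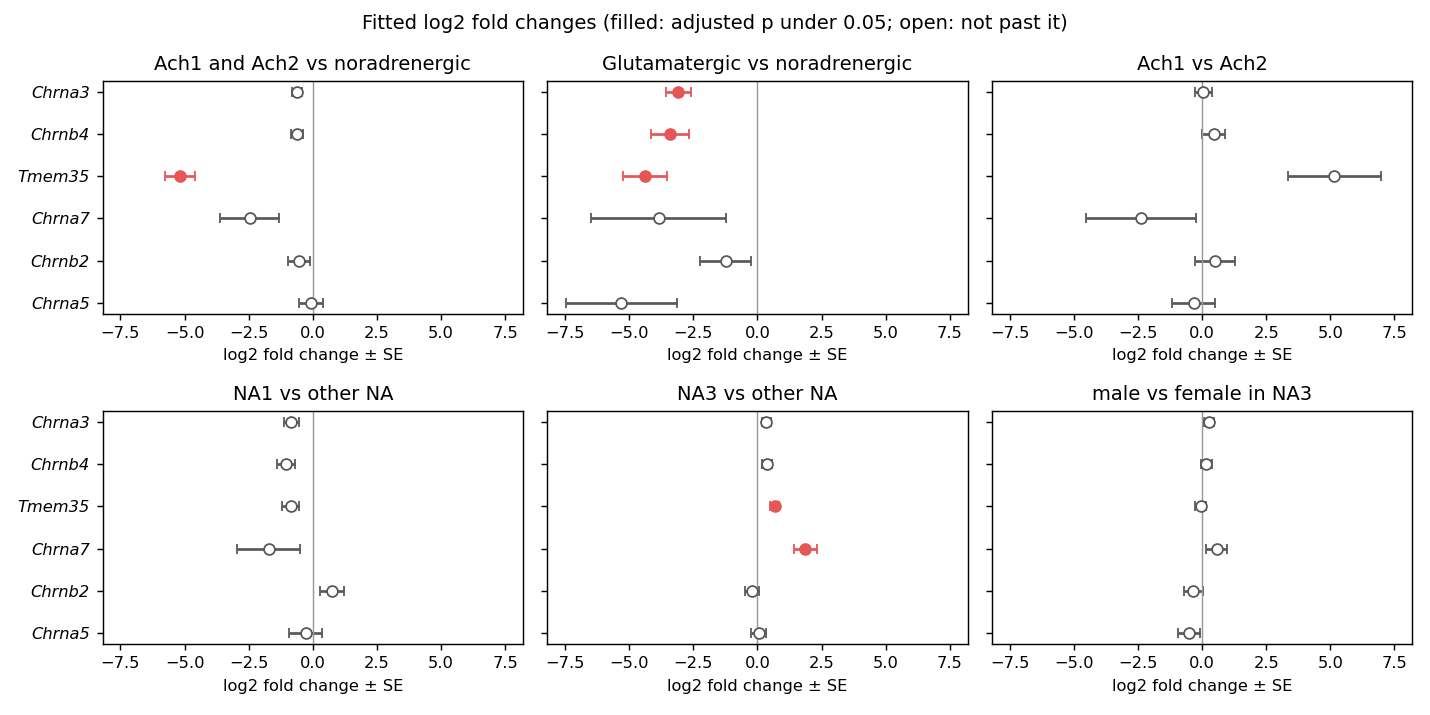
Fitted log2 fold change with its standard error (x axis) of the 6 tested members (y axis) in 6 comparisons; filled red points passed an adjusted p under 0.05 and open points did not. NA1 and NA3 stand for Noradrenergic1 and Noradrenergic3. Tmem35 lies at -5.18 in cholinergic cells, and 3 members lie between -3.08 and -4.37 in Glutamatergic cells. Points of genes with all libraries of a group at 0, such as Chrna5 and Chrna7 in Glutamatergic cells and Tmem35 in Ach2 cells, depend on the small count edgeR adds.

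Chrna3, the ligand-binding subunit gene that defines the ganglionic receptor, gave 5499 counts in 297 of 298 cells. Levels are given as counts per 10000 counts, pooled within a collection. In Noradrenergic3 cells Chrna3 ranged from 4.10 in the P11 female collection to 6.66 in the P29 male collection, with a median of 5.39 (mean 5.60 ± 0.863, SD, n = 7). In Noradrenergic5 cells it ranged from 2.42 to 8.77 with a median of 7.06 (6.29 ± 2.41, n = 6), and in Noradrenergic2 cells from 3.42 to 10.3 with a median of 4.97 (5.48 ± 2.22, n = 7). The spans of these 3 identities overlapped over most of their length.

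Noradrenergic4 cells held Chrna3 at 5.18, 7.05, 4.26, 4.18 and 7.33 in their 5 collections (5.60 ± 1.51). Noradrenergic1 cells held it at 5.92, 2.66, 2.87, 2.92 and 4.16 (3.71 ± 1.37), with the P29 male collection high and the other 4 between 2.66 and 4.16. Their difference from the other noradrenergic identities was -0.84 (log2, with an SE of 0.28 and an edgeR adjusted p = 0.118) and did not pass the threshold. It passed with chips in place of collections (-0.87, adjusted p = 0.0198) and with libraries of at least 2 cells (-0.76, adjusted p = 0.0125).

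In Ach1 cells Chrna3 ranged from 2.75 to 5.74 with a median of 4.24 (4.28 ± 1.16, n = 7). Ach2 cells held 2.87, 5.34, 2.93 and 3.57 in the P16 female, P29 male, P30 female and P38 male collections (3.68 ± 1.15). Cholinergic cells were lower than noradrenergic cells of the same collection in 6 of 7 collections, the P30 male collection being the exception. The fitted difference was -0.61 (SE 0.20, adjusted p = 0.0537), just outside the threshold, while the median over all genes was -0.20. The groups overlapped. This value passed in 5 of the 9 other settings and without the P11 female, P30 male, P33 female or P34 female collection, with adjusted p from 0.00557 to 0.266 over all alternatives. Ach1 and Ach2 differed by 0.05 (SE 0.35, adjusted p = 1), a miss of the threshold that does not show them alike.

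The Glutamatergic cells stood apart. Their 4 cells held 1, 6, 2 and 0 Chrna3 counts, at 0.490 in the P29 male collection, 0.345 in the P31 female collection and 1.17 in the P33 female collection (0.670 ± 0.443, n = 3). All 3 lay below the lowest value of any other identity, 2.42 in Noradrenergic5. Chrna3 fell by 3.08 (log2) against noradrenergic cells (SE 0.49, edgeR adjusted p = 1.15e-07), while the median of all genes was -0.39. The cell of the P33 female collection, which held 6 of the 9 counts, also held 130 counts of Th, the noradrenaline synthesis enzyme. Without that library Chrna3 fell by 4.15 (adjusted p = 2.47e-07), a larger drop.

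**Figure D2:**
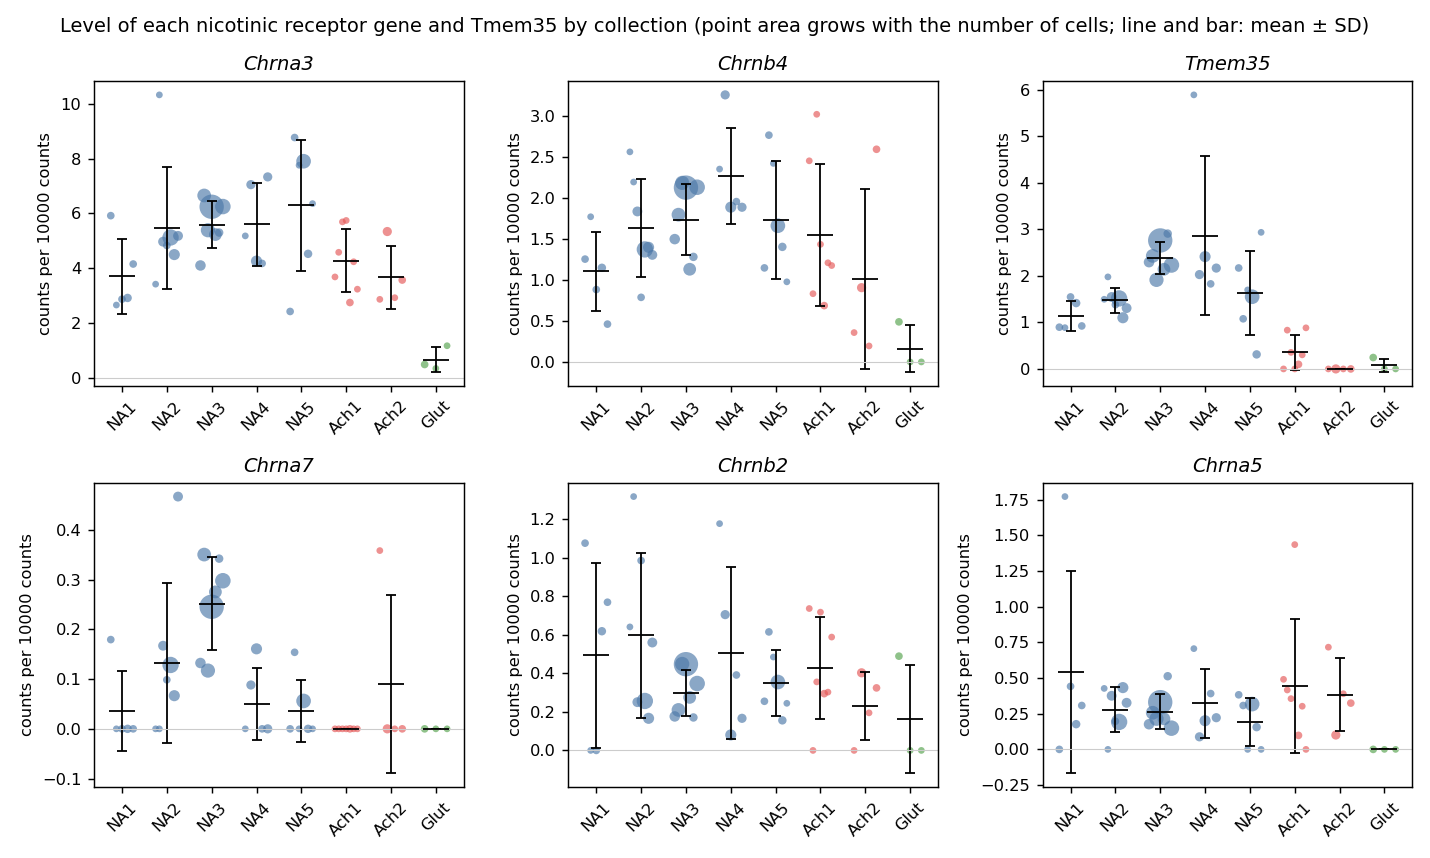
Level of 6 genes in counts per 10000 counts (y axis) by identity (x axis; NA1 to NA5 are Noradrenergic1 to Noradrenergic5 and Glut is Glutamatergic). Each point is 1 collection and its area grows with its number of cells; the line and bar are the mean ± SD over collections. Chrna3 lies between 0.345 and 1.17 in Glutamatergic cells, and Tmem35 is at 0 in all 4 collections of Ach2.

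Chrnb4, which encodes the beta subunit that pairs with the Chrna3 subunit, gave 1765 counts in 288 cells. In Noradrenergic3 cells it ranged from 1.13 to 2.19 with a median of 1.80 (1.74 ± 0.437, n = 7). Noradrenergic4 cells held 2.36, 3.26, 1.89, 1.96 and 1.89 (2.27 ± 0.587), and Noradrenergic1 cells 1.26, 1.77, 0.884, 1.15 and 0.462 (1.10 ± 0.483). All 5 Noradrenergic4 values lay above all 5 Noradrenergic1 values. Against the other noradrenergic identities, Noradrenergic4 differed by 0.59 (SE 0.24, adjusted p = 0.313) and Noradrenergic1 by -1.04 (SE 0.34, adjusted p = 0.120), and neither passed. With libraries of at least 2 cells Noradrenergic1 passed (-1.06, adjusted p = 0.0451).

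Ach1 cells held Chrnb4 between 0.688 and 3.02 with a median of 1.21 (1.55 ± 0.868, n = 7). Ach2 cells held 0.358, 0.907, 0.195 and 2.60 (1.01 ± 1.10), a wide spread in which the P38 male collection was high and the P30 female collection low. The cholinergic difference of -0.62 (SE 0.25, adjusted p = 0.153) did not pass; without the P38 male collection it was -1.20 (adjusted p = 0.00574) and passed. In Glutamatergic cells Chrnb4 was 0.490, from 2 counts in 1 cell of the P29 male collection, and 0 in the P31 and P33 female collections. Pooled, this was 10.8-fold lower than in noradrenergic cells (counting interval 2.98 to 89.3). The fitted fall of 3.41 (SE 0.75, adjusted p = 0.000571) was lost without the P31 female collection (-2.89, adjusted p = 0.0555) and in DESeq2 (adjusted p = 0.0763). With libraries of at least 2 cells, only the P29 male library, which held these 2 counts, was left of the Glutamatergic cells.

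The ratio of Chrnb4 to Chrna3 counts, which does not depend on depth, ranged from 0.222 to 0.387 over identities. It was 0.329 in Noradrenergic3 (exact 95% counting interval 0.303 to 0.357), 0.287 in Noradrenergic2 (0.248 to 0.330) and 0.266 in Noradrenergic1 (0.170 to 0.404). It was highest in Ach1, at 0.387 (0.269 to 0.548), and Noradrenergic4, at 0.384 (0.315 to 0.467), and lowest in Glutamatergic cells, at 0.222 from 11 counts in all (0.023 to 1.07), and Noradrenergic5, at 0.237 (0.196 to 0.286). Over collections with at least 20 counts it averaged 0.417 ± 0.0898 (n = 5) in Noradrenergic4 and 0.261 ± 0.0744 (n = 5) in Noradrenergic5. Their ranges, 0.258 to 0.469 and 0.154 to 0.316, overlapped. These intervals cover counting error only.

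The accessory subunit genes were sparse. Chrna5 gave 261 counts in 154 cells, and its pooled level lay between 0.242 and 0.296 in the 7 identities other than the Glutamatergic cells, which held 0 counts. Their total allows a bound of at least 1.08-fold lower than in noradrenergic cells, so a lower level was barely detectable at this depth. Collections ranged from 0 to 1.77 in Noradrenergic1 and from 0.149 to 0.513 in Noradrenergic3, and the highest single values came from libraries of 1 cell with 2 counts. In no comparison did Chrna5 pass; the cholinergic difference was -0.09 (SE 0.47, adjusted p = 0.999).

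Chrnb2, the other beta subunit gene, gave 349 counts in 187 cells. In Noradrenergic3 cells it ranged from 0.171 to 0.449 with a median of 0.275 (0.297 ± 0.120, n = 7), and Ach1 cells from 0 to 0.737 with a median of 0.356. Noradrenergic1 cells held 1.08, 0, 0, 0.619 and 0.770, the highest pooled level of any identity at 0.620. That identity differed from the other noradrenergic ones by 0.76 (SE 0.47, adjusted p = 0.672), with 2 of 5 collections at 0. The ratio of Chrnb2 to Chrnb4 counts was 0.621 in Noradrenergic1 (0.325 to 1.16) against 0.206 over all noradrenergic cells (0.180 to 0.235). Chrnb2 passed in no comparison. Chrna4, which pairs with the Chrnb2 subunit in brain receptors, had 1 count in an Ach1 cell and 3 counts in 3 Noradrenergic3 cells, and was at 0 in all other cells.

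Among cells with an identity, Chrna7 was found mainly in Noradrenergic3, with 95 counts, and Noradrenergic2, with 27. Unclassified cells held 44 of its 177 counts in all. In Noradrenergic3 it ranged from 0.117 in the P30 female to 0.350 in the P29 male collection, with a median of 0.275, and no collection was at 0 (0.251 ± 0.0940, n = 7). In Noradrenergic2 it ranged from 0 to 0.467 with a median of 0.0986 and 2 of 7 collections at 0. Noradrenergic1 held it in 1 of 5 collections, Noradrenergic4 in 2 of 5 and Noradrenergic5 in 2 of 6, each of these values at or below 0.179. All 7 Noradrenergic3 values lay within the Noradrenergic2 range.

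On the log2 scale, Chrna7 rose by 1.87 in Noradrenergic3 against the other noradrenergic identities (SE 0.44, edgeR adjusted p = 0.00295), while the median of all genes was 0.16. The call held without each collection in turn, with adjusted p from 0.00284 to 0.0328. It was lost when every cell was thinned to 15000 counts (1.92, adjusted p = 0.0838), and DESeq2 gave it no adjusted p. Of Noradrenergic3 cells 54.4% had a Chrna7 count (exact 95% interval 44.3 to 64.2%), of Noradrenergic2 cells 43.6% (27.8 to 60.4%), and of Noradrenergic5, Noradrenergic4 and Noradrenergic1 cells 17.4%, 11.1% and 10.0%. At 15000 counts per cell the shares were 28.2% in Noradrenergic3 and 28.2% in Noradrenergic2, so the first 2 identities could not be told apart by detection at equal depth. Their median totals were 36658 and 43245 counts.

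In cholinergic cells Chrna7 had 1 count in 16 cells, an Ach2 cell of the P16 female collection, against 132 counts in 193 noradrenergic cells. That is a ratio of 9.77-fold lower with a counting interval of 1.72 to 389. The fitted difference of -2.47 (SE 1.16, adjusted p = 0.270) did not pass. No count was found in 4 Glutamatergic cells, where so few counts in all give no bound.

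**Figure D3:**
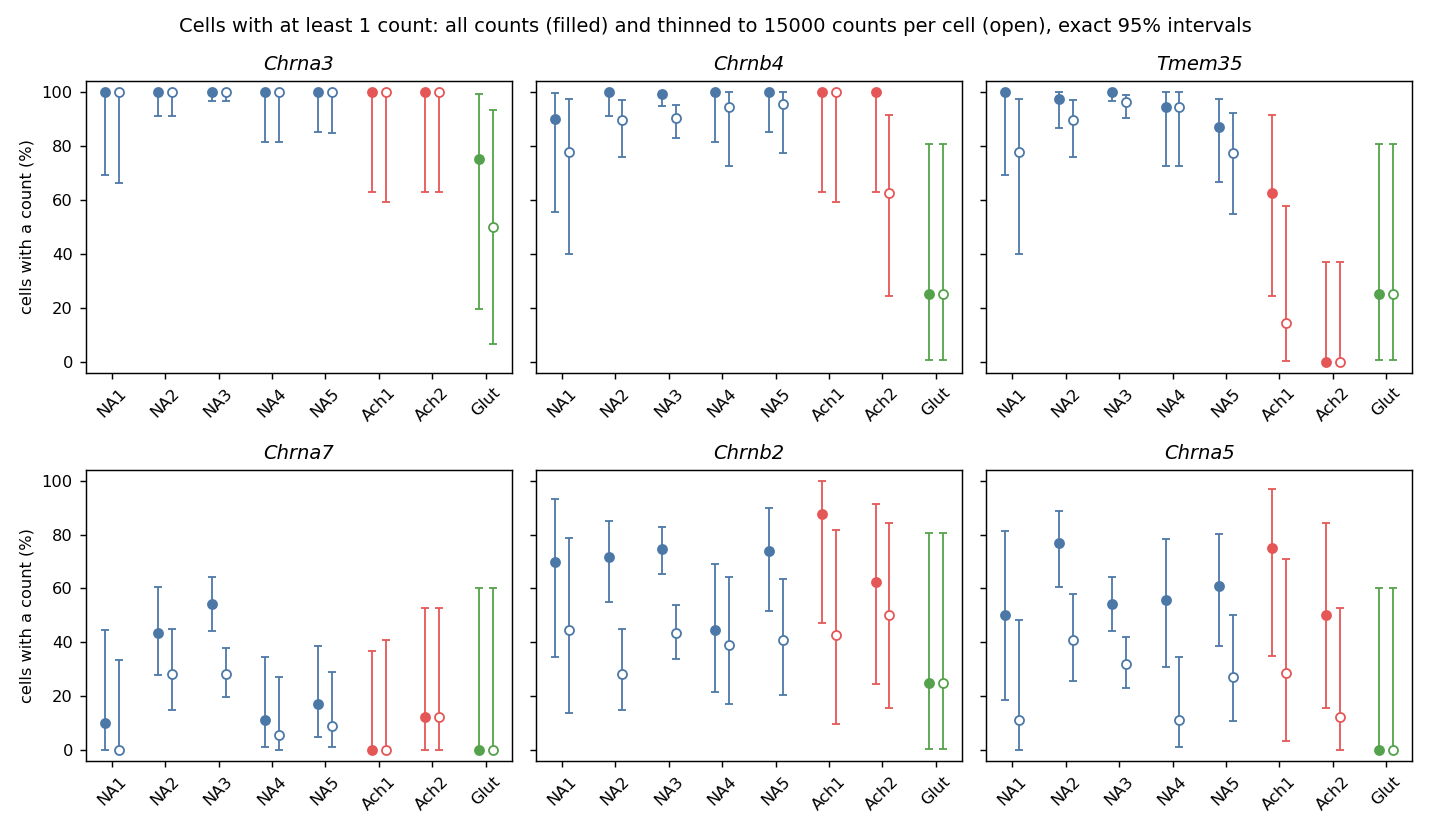
Share of cells with at least 1 count (y axis, percent) of 6 genes by identity (x axis, short names as in the plot of levels), with exact 95% binomial intervals; filled points use all counts and open points cells thinned to 15000 counts. Tmem35 was found in 100% of Noradrenergic3 and 0% of Ach2 cells, and Chrna7 in 54.4% of Noradrenergic3 and 0% of Ach1 cells.

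Tmem35, the chaperone gene, gave 1822 counts in 265 cells. In Noradrenergic3 cells it ranged from 1.91 to 2.91 with a median of 2.29 (2.38 ± 0.349, n = 7). Noradrenergic4 cells held 5.89, 2.03, 2.41, 1.83 and 2.17 (2.86 ± 1.70), the first from the only cell of the P11 female collection. Noradrenergic2 cells ranged from 1.10 to 1.98 with a median of 1.497 (1.47 ± 0.270, n = 7). Noradrenergic5 cells ranged from 0.312 to 2.93 with a median of 1.62, and Noradrenergic1 cells held 0.897, 0.886, 1.55, 1.41 and 0.923 (1.13 ± 0.321). All 7 Noradrenergic3 values lay above all 5 Noradrenergic1 values. Of the 7 Noradrenergic2 values, 1 reached into the Noradrenergic3 range, that of a single P20 female cell, while Noradrenergic4 and Noradrenergic5 overlapped with it.

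Tmem35 rose by 0.67 in Noradrenergic3 against the other noradrenergic identities (SE 0.18, edgeR adjusted p = 0.0175). Without the P29 male, P31 female, P33 female or P38 male collection the difference lay between 0.59 and 0.68 with adjusted p from 0.104 to 0.149, so the call rests on having all 4. It was also lost with DESeq2's size factors in edgeR (0.53, adjusted p = 0.0955), in DESeq2 (adjusted p = 0.0926) and in cells thinned to 15000 counts (adjusted p = 0.0561). Noradrenergic4 differed by 0.70 (SE 0.23, adjusted p = 0.136) in edgeR and passed in DESeq2 (0.74, adjusted p = 0.0320). For each Chrna3 count there were 0.413 Tmem35 counts in Noradrenergic3 (0.382 to 0.446) and 0.433 in Noradrenergic4 (0.357 to 0.522), against 0.281 in Noradrenergic2 (0.243 to 0.324) and 0.218 in Noradrenergic5 (0.179 to 0.265).

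In cholinergic cells Tmem35 was nearly absent. The 7 collections with cholinergic cells held 0 to 0.314 with a median of 0.162 (0.152 ± 0.129), and the 10 with noradrenergic cells 1.497 to 2.91 with a median of 1.95 (2.01 ± 0.479). With identities pooled the groups did not overlap, and cholinergic cells were lower in 7 of 7 collections that held both. Single identities came closer: Ach1 ranged from 0 to 0.883 with a median of 0.303. That range overlapped the one of Noradrenergic5, 0.312 to 2.93, and ended just below the lowest Noradrenergic1 value, 0.886. On the log2 scale, Tmem35 fell by 5.18 (SE 0.58, edgeR adjusted p = 1.14e-16). The call held in 19 of 19 alternatives, with values from -6.22 to -3.97. Because all Ach2 libraries were at 0, the fitted size is no bound.

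The few cholinergic counts lay in Ach1. Its 8 cells held 1, 0, 0, 3, 2, 1, 0 and 2 Tmem35 counts, so 62.5% of them had a count (exact 95% interval 24.5 to 91.5%). The 8 Ach2 cells held none, which allows a share of up to 36.9%, and their level was at least 16.5-fold lower than in noradrenergic cells, with 3 counts in the whole group taken as the floor. On the same floor Ach1 was at least 2.37-fold higher than Ach2, a bound that leaves out counting error in the 9 Ach1 counts. The test between Ach1 and Ach2 had an unadjusted p of 0.00477 and an adjusted p of 0.478, so it did not pass.

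Of the 8 Ach1 cells 4 held at least 33 counts of Th and 4 held 0. The cells with Th held 1, 0, 3 and 1 Tmem35 counts and the cells without it 0, 2, 0 and 2, so Tmem35 counts occurred in both. Without the Ach1 cells with at least 10 Th counts, Tmem35 fell by 5.26 against noradrenergic cells (adjusted p = 1.92e-12). For each Chrna3 count there were 0.0415 Tmem35 counts in cholinergic cells (0.0187 to 0.0802) and 0.358 in noradrenergic cells (0.337 to 0.380).

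**Figure D4:**
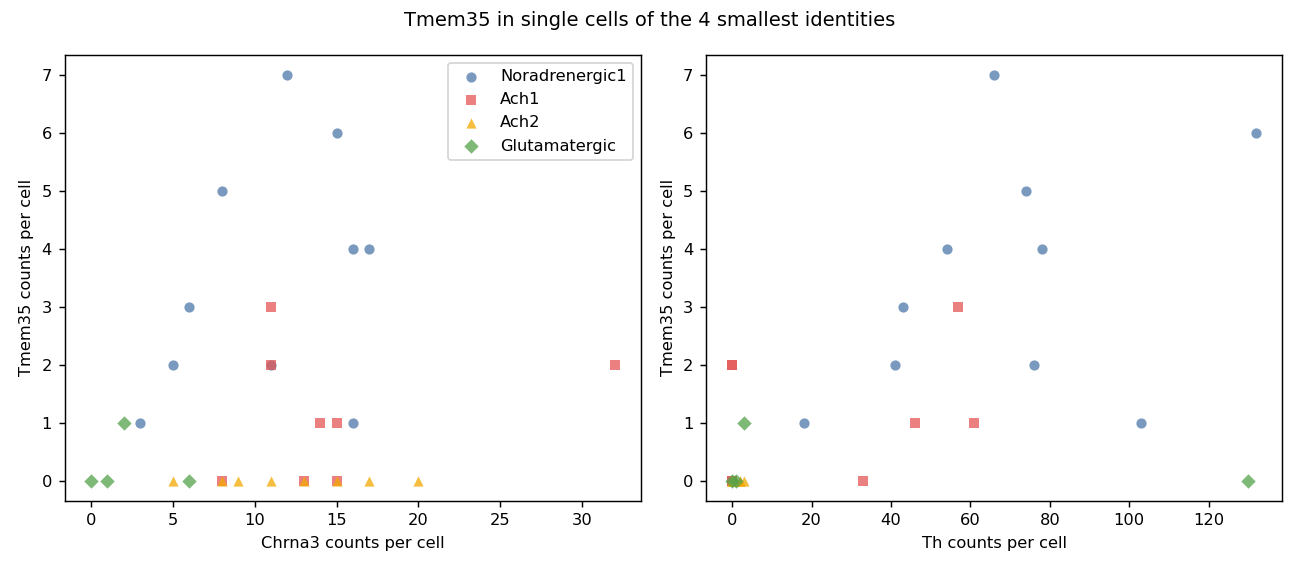
Tmem35 counts against Chrna3 counts and against Th counts in the 30 single cells of Noradrenergic1, Ach1, Ach2 and Glutamatergic; each point is 1 cell. The 10 Noradrenergic1 cells hold 1 to 7 Tmem35 counts, and the 8 Ach2 cells hold 0 at 5 to 20 Chrna3 counts.

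In Glutamatergic cells 1 Tmem35 count was found, in the P29 male cell that also held 2 Chrnb4 and 2 Chrnb2 counts. Levels were 0.245 in the P29 male collection and 0 in the P31 and P33 female collections. Pooled, Tmem35 was 24.9-fold lower than in noradrenergic cells (counting interval 4.46 to 984). The fitted fall was 4.37 (SE 0.87, edgeR adjusted p = 7.77e-05). It was -2.93 with libraries of at least 2 cells, where only the P29 male library was left of the Glutamatergic cells. Without the P29 male collection it was -7.89, which rests on libraries at 0.

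The subunit genes were then read together in single cells. Both Chrna3 and Chrnb4 had a count in 208 of 213 cells with an identity, 97.7% (88.1% of cells thinned to 15000 counts). The other 5 were 3 Glutamatergic cells, of which 2 held Chrna3 without Chrnb4 and 1 held neither, 1 Noradrenergic1 cell and 1 Noradrenergic3 cell. No cell held Chrnb4 without Chrna3. Within the 7 collections that held both kinds, the share averaged 100% in cholinergic and 98.8% in noradrenergic cells, a difference of 1.21 points (SD 2.09). It was 0 in 5 of 7 collections, so the exact two-sided sign-flip permutation test could give no p below 0.5 and says nothing here. Thinning turned the difference to -5.72 points and asking for 2 counts to -9.45 points.

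The most frequent combination was Chrna3, Chrna5, Chrnb2 and Chrnb4, in 54 of 213 cells. Chrna3 with Chrnb2 and Chrnb4 followed in 36 cells, and the same 3 with Chrna5 and Chrna7 in 28. Chrna3 and Chrnb4 alone were found in 12 cells, and all 6 subunit genes in 2, both Noradrenergic3. After thinning, Chrna3 and Chrnb4 alone became the most frequent combination, in 55 cells, so the number of genes found per cell moved with depth. Averaged over the means of 7 collections, cholinergic cells held 3.79 of the 6 genes and noradrenergic cells 3.67. The difference was 0.119 (SD 0.970, n = 7 collections, exact sign-flip permutation test, p = 0.8125, where the smallest possible p is 0.03125), lower in 3 of 7 collections. Averaged over single cells the order was the other way, with 3.5 in 16 cholinergic and 3.73 in 193 noradrenergic cells. The difference over collections was -0.194 without the P30 male collection, whose 1 cholinergic cell held 5 genes, and -0.0471 after thinning.

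Chrna7 joined the pair of Chrna3 and Chrnb4 in 53.4% of Noradrenergic3 and 43.6% of Noradrenergic2 cells, and in 10.0 to 17.4% of cells of the other noradrenergic identities. After thinning the order of the first pair of identities reversed, with 24.3% in Noradrenergic3 and 28.2% in Noradrenergic2. The other noradrenergic identities then lay at 0 to 9.09%. Among thinned noradrenergic cells, Chrna5 was found in 30.2% of 43 cells with Chrna7 and in 30.4% of 148 cells without it. Chrnb2 was found in 18 of 58 cells with Chrna5 and in 58 of 133 without it, 43.6%. Within Noradrenergic3 alone, Chrnb2 was found in 42.4% of 33 thinned cells with Chrna5 and in 44.3% of 70 without it. The pooled gap was thus hardly seen within that identity. These shares describe cells of shared collections and carry no test.

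**Figure D5:**
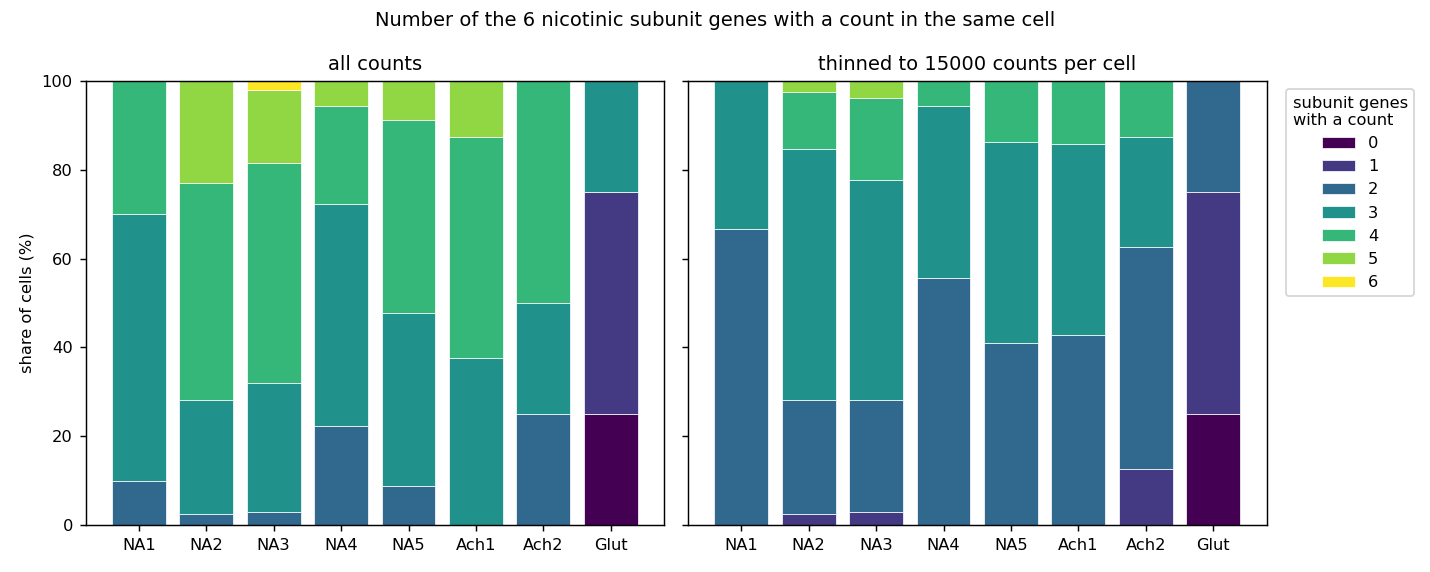
Share of cells (y axis, percent) by the number of the 6 subunit genes with at least 1 count, stacked for each identity (x axis), with all counts and with cells thinned to 15000 counts. After thinning the bars move towards fewer genes, and all 6 genes were found in 2 cells, both Noradrenergic3, with all counts.

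Other genes of receptor assembly and of the synapse were read from lists. Of 10 further nicotinic subunit genes, 0 had enough counts to be tested; Chrnb1 had 11 counts in all and Chrnb3 had 7. Of 13 assembly and chaperone genes, 1 rose in cholinergic cells and 0 fell, where 2.17% of all genes rose and 2.40% fell: Vsnl1, which encodes the calcium sensor VILIP-1, rose by 1.54 (SE 0.31, edgeR adjusted p = 5.26e-05). Vsnl1 also rose in Noradrenergic3 against the other noradrenergic identities (0.94, SE 0.27, edgeR adjusted p = 0.0349), a call lost in 9 of 18 alternatives. In that comparison 1.46% of all genes rose. Ric3, a chaperone of Chrna7 receptors, passed in no comparison; in cholinergic cells it differed by 0.36 (SE 0.31, adjusted p = 0.650) and in Noradrenergic3 by 0.47 (SE 0.25, adjusted p = 0.516).

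Of 14 postsynaptic scaffold and adhesion genes, 2 rose in cholinergic cells and 0 fell, beside the same 2.17% and 2.40% of all genes. Nlgn1, the adhesion molecule neuroligin 1, rose by 4.49 (SE 0.66, adjusted p = 1.39e-09), and Dmd, which encodes dystrophin, by 1.34 (SE 0.41, adjusted p = 0.0308). The Dmd call held in 9 of 19 alternatives, with adjusted p up to 0.525, and was lost among others with the glial marker level as a covariate (1.16, adjusted p = 0.138). The list's median was -0.05, against -0.20 over all genes.

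Of 10 transcription factors listed for the subunit gene cluster, 6 were tested. In Glutamatergic cells 1 rose and 1 fell, where 1.62% of all genes rose and 1.01% fell. Phox2a, a determinant of autonomic neurons, fell by 2.23 in Glutamatergic cells (SE 0.59, adjusted p = 0.0105), and Jun rose by 1.00 (SE 0.31, adjusted p = 0.0440). The Phox2a call held in 13 of 19 alternatives, with adjusted p up to 0.348, and was lost without the P29 male or P33 female collection. The Jun call held in 11 of 19, with adjusted p up to 0.762, and was lost without the P16 female, P29 male, P31 female, P34 female or P38 male collection. The Ly6 proteins bind nicotinic receptors at the membrane, and 2 of 9 of their genes were tested. In Noradrenergic3, with 1.74% of all genes called, 1 fell, and in Noradrenergic5, with 1.41% called, 1 rose. Lynx1 fell by 1.36 in Noradrenergic3 (SE 0.27, adjusted p = 6.92e-05), and Ly6e rose by 2.20 in Noradrenergic5 (SE 0.38, adjusted p = 5.53e-06). The Lynx1 call held in 17 of 18 alternatives and the Ly6e call in 16. Of 5 muscarinic receptor genes 2 were tested, and 1 was called in Noradrenergic3, beside the same 1.74% of all genes. Chrm2 rose there by 0.65 (SE 0.20, edgeR adjusted p = 0.0486), a call lost in 10 of 18 alternatives.

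The sexes were compared within Noradrenergic3, over 2 male and 5 female libraries and 10141 genes. Of the 6 tested members 0 were called by edgeR, 0 had an unadjusted p under 0.05 and 0 were called by DESeq2. Chrna7 was 0.350 and 0.298 in the male collections and 0.117 to 0.342 in the female ones, a log2 difference of 0.57 (SE 0.41). Chrna3 was 6.66 and 6.25 in the males and 4.10 to 6.24 in the females (0.26, SE 0.19). Both male values of Chrna3 thus lay just above all female values, without passing the test. The fit held sex only, so age was not taken into account, and the lowest female value, 4.10, was that of the P11 female collection. Tmem35 differed by -0.05 (SE 0.21), and 2 male libraries leave wide intervals.

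Genes whose levels ran most like the members' were ranked by Spearman's rho over the 44 libraries and 9290 genes, as a description. Libraries share collections and differ in identity and cell number, which rho does not remove, so genes that separate the identities can rank high. For Tmem35 the leading genes were Gch1 at 0.83, B3gat1 at 0.82 and Ddc at 0.79. For Chrna3 they were Dbh at 0.78, Cyb561 at 0.77 and Gch1 at 0.74, with Chrnb4 in rank 52 at 0.64. For Chrnb4 they were Mir5121 at 0.74, Rrs1 at 0.70 and Cul4b at 0.70. Gch1, Ddc and Dbh encode enzymes of catecholamine synthesis or of its cofactor.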

How the data were processed

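The authors deposited 1 table of counts per gene and cell. Per the submitters' processing notes the build was mm10; the aligner, the counter, strand use and collapsing of molecules are not given in the sources used here. Identity, sex and age came from the labels. Unclassified cells entered no comparison, and no doublet caller was run, because cells had been inspected by eye. The members and lists were chosen with earlier results of these data known. The genes named are the members, every listed gene that was called, marker genes and the leading genes by Spearman's rho. Ric3, Chrnb1 and Chrnb3 were named without a call, and Chrnb1 and Chrnb3 were not tested.

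Counts were summed per identity and collection into 44 libraries of 1 to 43 cells. Genes were fitted where they had at least 20 counts in all and were seen in 3 or more libraries, using edgeR 4.0.16 (R 4.3.3) with TMM scaling, robust quasi-likelihood tests and the collection as a block. Same-collection libraries deviated together: over 4296 genes the correlation was 0.184 to 0.226 in 4 pairs and averaged -0.0433 in 20 other pairs. Cell shares have exact binomial intervals, which cover counting error only. For thinning, 20 of 298 cells under 15000 counts were left out. Alternatives were DESeq2 1.42.0, its size factors in edgeR, no filter, no block, chips as blocks, larger libraries, thinning, a glial covariate and leaving out each collection. After the data were seen, 2 were added: leaving out Ach1 cells with at least 10 Th counts, and leaving out 1 Glutamatergic library. The edgeR fit was tested on simulated counts, for cholinergic against noradrenergic cells only.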

Additional observations from a re-analysis of the deposited data

Results flagged for a closer look

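In 10 of 42 groups of 4 to 7 collections 1 collection lay far from the others, where chance flags about 1 in 20 groups of untied values and a single count flags a group otherwise at 0; levels are counts per 10000 counts. For Chrna3, the single P20 female cell of Noradrenergic2 held 10.3, from 47 counts, with the next collection at 5.18. For Tmem35, the single P11 female cell of Noradrenergic4 held 5.89, from 25 counts, with the next at 2.41. For Chrna7, the P38 male collection of Noradrenergic2 held 0.467 from 10 counts, with the next at 0.167. The others rest on 1 or 2 counts. Chrna7 was 0.358 in the P16 female collection of Ach2, 0.179 in the P29 male collection of Noradrenergic1 and 0.154 in the P29 male collection of Noradrenergic5. Chrna5 was 1.44 in the P30 male collection of Ach1 and 1.77 in the P30 female collection of Noradrenergic1. Chrna4 was 0.718 in the P30 male collection of Ach1 and 0.0612 in the P33 female collection of Noradrenergic3.

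The 85 Unclassified cells, which entered no comparison, held counts of 6 members above the limit that a count of 0 allows. Pooled levels were 5.36 for Chrna3, 1.93 for Chrnb4, 1.53 for Tmem35, 0.292 for Chrnb2, 0.246 for Chrna5 and 0.225 for Chrna7. Over 7 collections Tmem35 ranged from 0 to 2.13 with a median of 1.43, and 83.5% of the cells had a Tmem35 count. The median of the summed glial markers was 27.5 in these cells.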

How the results depend on the processing

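Tmem35 in cholinergic and Chrna3 in Glutamatergic cells passed in 19 of 19 alternatives. In cholinergic cells the members called went from 1 to 2, with Chrna3 added, without the filter, with chips as blocks, with libraries of at least 2 cells, after thinning and with the glial covariate. With libraries of at least 2 cells, Ach1 cells kept only their P31 female library and Glutamatergic cells only their P29 male library. In Glutamatergic cells the members called went from 3 to 2 in DESeq2. In Noradrenergic1 they went from 0 to 1 with chips as blocks and to 2 with libraries of at least 2 cells, and in Noradrenergic4 to 1 in DESeq2. In Noradrenergic3 they went from 2 to 1 with DESeq2's size factors in edgeR and to 0 in DESeq2 and after thinning. Leaving out each collection gave 1 to 2 in cholinergic cells, 2 to 3 in Glutamatergic cells, 1 to 2 in Noradrenergic3 and 0 to 0 in the other 6 comparisons. The cause was not tested.

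Without the replicate block, cholinergic cells kept a count of 1 member and Noradrenergic3 a count of 2, and all genes called in cholinergic cells went from 528 to 617; no other count of members moved. Between Ach1 and Ach2, all genes called went from 16 to 5 without the replicate block, 5 in DESeq2, 5 without the P38 male collection, 7 with chips and 4 after thinning. Libraries of at least 2 cells left only the P31 female library of Ach1 and the P29 male and P38 male libraries of Ach2. As these share no collection, that setting is not read for this comparison. Over all alternatives, genes called ranged from 279 to 617 in cholinergic, 91 to 379 in Glutamatergic, 66 to 242 in Noradrenergic1 (161 as designed), 83 to 273 in Noradrenergic2 (189), 109 to 326 in Noradrenergic3 (201), 68 to 173 in Noradrenergic4 (145), 56 to 216 in Noradrenergic5 (163) and 2 to 8 between the sexes (3). With DESeq2's size factors in edgeR, 338 genes were higher and 219 lower in cholinergic cells (251 and 277 as designed), 291 and 46 in Glutamatergic cells (187 and 117), and 115 and 45 in Noradrenergic3 (169 and 32). In DESeq2, 105 and 39 were so in Noradrenergic1 (100 and 61) and 1 and 4 in Ach1 against Ach2 (5 and 11). In Glutamatergic cells 142 were higher and 159 lower with chips, and 95 and 112 after thinning. The median of all genes moved from -0.39 to 0.02 in Glutamatergic and from -0.20 to -0.04 in cholinergic cells with those size factors.

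The difference in the share of cells with both Chrna3 and Chrnb4 reversed to -9.45 points at 2 counts and -5.72 after thinning, and ranged from 0.617 to 1.41 without each collection. That in subunit genes per cell reversed to -0.154 at 2 counts and -0.0471 after thinning, and ranged from -0.194 to 0.281 without each collection. Depth limits the sparse members: Chrna5, Chrna7 and Chrnb2 had 177 to 349 counts in all, and 16 of 44 libraries were single cells.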
